A study of Homo sapiens with 10 samples.

Results

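DNA repair genes were described across 4 human leukaemia and lymphoma cell lines and 6 mixtures of them. The members were 41 genes given by name, from homologous recombination to direct reversal of base damage; each had 1 row among the 20591 genes of the deposited table, and all 41 passed the level filter used below (5 or more in at least 1 pure line). The pure lines were untreated, wild type by label and taken at day 0: HL60 comes from an acute promyelocytic leukaemia, K562 from a chronic myeloid leukaemia and has erythroid features, SUDHL4 from a B cell lymphoma of germinal-centre type, and THP1 from an acute leukaemia of monocytic type. By label, mixtures 1 to 6 pooled these 4 lines, at ratios that the labels do not give. All were established lines, and there was 1 bulk RNA library per pure line and per mixture, so nothing here measures the spread between cultures and no p-value is given.

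Levels are given as normalised CPM: the authors rescaled reads per 1000000 so that libraries could be compared. The 10 libraries held between 24985570 and 36607612 reads, and each read added 0.0273 to 0.0396 normalised CPM. Intervals are exact Poisson ones at 95%, taken from the reads behind each value, and cover counting error only. The defining markers stood where the labels put them for 11 of 12 genes, such as MPO at 15645 in HL60 and MS4A1 at 2669 in SUDHL4; ELANE, listed for HL60 at 119, was higher in THP1 at 801. The T cell and stromal markers CD3E, CD8A and COL1A1 stayed under 5 in every pure line.

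Cells repair DNA by several pathways, some of which share components. Double-strand breaks are signalled by kinases such as ATM and ATR. They are then either copied from an intact sister by homologous recombination or rejoined directly by end joining. Mismatch, base excision and nucleotide excision repair replace damaged or wrong bases on 1 strand. MGMT works alone: it takes the alkyl group off the O6 position of guanine onto itself and is used up in doing so, and its promoter is known in tumours for silencing at CpG sites.

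MGMT was the 1 member near 0 in a single line. It had 0 reads in K562, which allows a level of up to 0.0988 normalised CPM by a limit of 3 reads (the exact interval reaches 0.118), against 36.7 in SUDHL4 (34.5 to 39.1), 24.4 in HL60 (22.7 to 26.3) and 18.3 in THP1 (16.8 to 19.8). Against the 3-read limit, K562 was at least 247-fold lower than HL60, at least 372-fold lower than SUDHL4 and at least 185-fold lower than THP1. The 3 expressing lines followed the order SUDHL4, HL60, THP1, with counting intervals that did not overlap. Near 0 means under 1 in exactly 1 line, at least 1 in the other 3 and at least 5 in one of them; of 11717 genes at 5 or more in a pure line, 9.36% met this in some line and 2.77% in K562, so the 1 member in 41 (2.44%) was no larger a share than that of all genes. No member was near 0 in HL60, SUDHL4 or THP1 alone, against 2.06%, 3.94% and 0.597% of all genes in that order. In bulk RNA a level cannot separate fewer expressing cells from less RNA per cell.

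The gene lies on chromosome 10 from 129467184 to 129768007 (GRCh38, plus strand). Its promoter is shown because it belongs to the 1 member without reads in a line. The window below runs from 250 bases before to 50 bases after the RefSeq start (GRCh38.p14, plus strand, chr10:129466991-129467290), with every CG pair in capitals.
MGMT promoter: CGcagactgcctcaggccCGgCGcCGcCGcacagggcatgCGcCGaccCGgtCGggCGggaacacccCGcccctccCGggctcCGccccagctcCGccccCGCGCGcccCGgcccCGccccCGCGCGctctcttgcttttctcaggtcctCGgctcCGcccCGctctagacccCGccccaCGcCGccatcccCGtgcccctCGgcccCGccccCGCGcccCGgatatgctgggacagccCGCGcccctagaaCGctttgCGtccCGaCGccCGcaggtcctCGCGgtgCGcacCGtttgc
It holds 45 CG pairs, read on 1 strand since the pair is its own complement. Among the 26 members with a single entry in the promoter table, the counts ran from 16 (CHEK2) to 45, and none exceeded MGMT. Of 35116 promoters of 300 bases, 3.48% held at least as many, and the median was 14. POLH came next at 43 pairs and had reads in all 4 lines. DNA methylation was not measured, so the pairs describe the sequence alone.

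Genes around MGMT were not all low in K562. PTPRE, 1381 kb before it, also had 0 reads in K562, against 17.2 in HL60, 13.6 in THP1 and 8.87 in SUDHL4. The nearer gene EBF3, 67.3 kb after it, had 0 reads in K562 and in SUDHL4. GLRX3, 368 kb after it, was at 169 in K562, and MKI67, 1341 kb before it, at 469. These neighbours were chosen by distance, within 2 Mb and at 5 or more in a pure line.

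**Figure D1:**
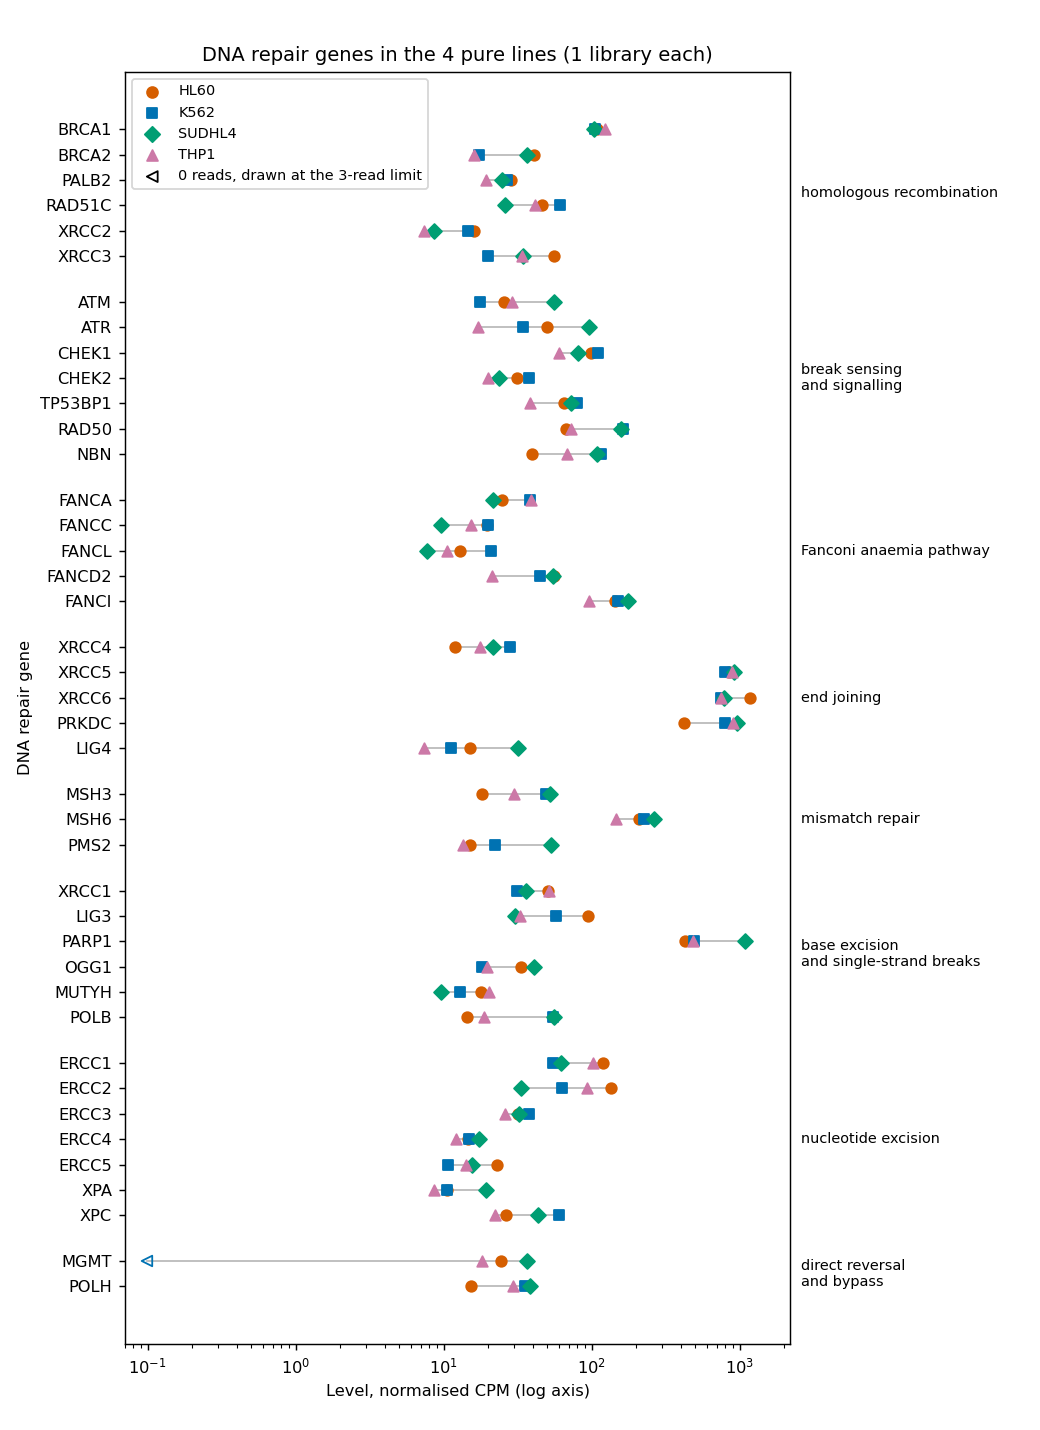
Level of each of the 41 DNA repair genes (rows, grouped by role) in the 4 pure lines, in normalised CPM on a log axis; each point is 1 library and grey lines join the lowest and the highest line. MGMT in K562, with 0 reads, is drawn at its 3-read limit of 0.0988, far left of every other point.

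The other 40 members were read in every library. The span, the highest minus the lowest line in log2(value + 1), had a median of 1.17 over the 41 members, against 1.69 over 11717 genes. As deposited, it ran from 0.22 (XRCC5) to 5.24 (MGMT). At least 4-fold (a span of 2 or more) was reached by 2 members, MGMT and ATR, or 4.88%, against 42.1% of all genes; ERCC2 at 1.99 and LIG4 at 1.97 lay just under it. At least 2-fold was reached by 28 members, or 68.3%, against 76.9% of all genes. No share of this kind was tested, since the libraries are single.

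Levels per length compare genes with each other, as normalised CPM per kb of merged exons. XRCC6, which with XRCC5 forms the Ku ring that binds broken ends, was the highest member, at a pure-line mean of 262 per kb. XRCC5 followed at 158, PARP1 at 86.8 and PRKDC at 49.8. The lowest was FANCC, a subunit of the Fanconi core complex, at 1.25 per kb, then ATM at 1.32 and ERCC4 at 1.74. This ranking depends on the merged length, which pools all annotated transcripts of a gene and was 12.8 kb for FANCC and 24.0 kb for ATM. Before division by length, XRCC2, at 7.32 to 16.1, was below FANCC in every pure line. FANCC had 19.5 normalised CPM in HL60, 19.8 in K562, 9.53 in SUDHL4 and 15.4 in THP1, and 15.2, 14.7, 11.8, 11.4 and 14.1 in mixtures 1, 3, 4, 5 and 6; its interval in mixture 2 was 12.6 to 15.5. SUDHL4 was its lowest pure line.

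In homologous recombination, BRCA1, which brings the resection and strand-exchange machinery to breaks, was nearly level as deposited. It had 108 normalised CPM in HL60, 106 in K562, 104 in SUDHL4 and 122 in THP1. Only the THP1 interval (118 to 126) lay clear of the others. With scaling to housekeeping genes, BRCA1 was at −0.51 log2 units in HL60 and 0.43 in THP1, against the mean of the other 3 lines. BRCA2, a tumour suppressor needed for this pathway, was at 40.7 in HL60 and 36.7 in SUDHL4, but 17.4 in K562 and 15.996 in THP1. PALB2, the link between them, ran from 19.3 (THP1) to 28.6 (HL60). RAD51C was highest in K562 (61.4) and lowest in SUDHL4 (26.1), and XRCC2 ran from 7.32 (THP1) to 16.1 (HL60). XRCC3 was at 55.5 in HL60 and 20.03 in K562; 76.7% of its merged exon length is also exon of KLC1 on the opposite strand, and the labels do not say whether reads were counted by strand. None of these 6 genes lay 2-fold from the mean of the other lines in any line.

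ATR had the widest span after MGMT, 2.43 log2 units. ATR, the kinase that answers stalled replication and single-stranded DNA, had 17.1 normalised CPM in THP1 (15.7 to 18.6), against 49.9 in HL60, 34.4 in K562 and 96.6 in SUDHL4 (92.9 to 100.3). The 4 intervals did not overlap, and SUDHL4 stood 5.65-fold above THP1. In mixtures 1 to 6 ATR was at 40.4, 27.4, 34.6, 57.9, 26.0 and 26.5, highest in mixture 4. The gene lies on chromosome 3 from 142449235 to 142578826. ATM, the kinase that answers double-strand breaks, was also highest in SUDHL4, at 55.2 against 25.4 in HL60, 17.5 in K562 and 28.9 in THP1. For the kinases downstream, CHEK1 was at 109.6 in K562 and 60.1 in THP1, and CHEK2 at 37.7 in K562 and 19.97 in THP1. TP53BP1, which shields ends from resection, was lowest in THP1 (38.1) and highest in K562 (79.1).

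RAD50 and NBN, partners in the complex that first binds a break, shared an order. RAD50 was at 162 in K562 and 158 in SUDHL4, against 67.4 in HL60 and 72.3 in THP1. NBN was at 39.6 in HL60, against 116 in K562, 108 in SUDHL4 and 68.5 in THP1, which put HL60 1.24 log2 units below the mean of the other 3. Both were lowest in HL60 and highest in K562. MRE11, part of the same complex but not a member, had another order. It was at 45.5 in K562, 38.8 in HL60, 35.8 in SUDHL4 and 31.4 in THP1. For RAD50, 79.7% of the merged exon length is shared with an overlapping annotated locus on the same strand.

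The Fanconi anaemia genes, whose products release cross-links between strands, differed by subunit. The core complex genes FANCA, FANCC and FANCL were all lowest in SUDHL4 as deposited. FANCL, the ubiquitin ligase of the complex, had 7.77 in SUDHL4 and 20.9 in K562. FANCA was at 38.9 in THP1 and 38.1 in K562, against 24.9 in HL60 and 21.6 in SUDHL4. For THP1, the highest line of FANCA alone among these core genes, the pair that the core complex modifies ran the other way from FANCA. FANCD2 was at 21.1 in THP1, against 55.2 in HL60, 44.8 in K562 and 54.8 in SUDHL4, and THP1 lay 1.25 log2 units below the mean of the others. FANCI was at 95.7 in THP1, against 143 in HL60, 151 in K562 and 177 in SUDHL4. Both genes of the pair were thus lowest in THP1.

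End joining held the highest single pure-line value of any member, XRCC6 in HL60, but also low levels of LIG4 and XRCC4. In SUDHL4, PARP1, at 1092, was above every end-joining gene. XRCC6 had 1170.3 normalised CPM in HL60, against 746 in K562, 777 in SUDHL4 and 749.7 in THP1. In mixtures 1 to 6 it was at 856, 974, 768, 851, 733 and 665, highest in mixture 2. XRCC5 stayed between 792 (K562) and 920.2 (SUDHL4) as deposited. With scaling to housekeeping genes, XRCC5 was at −0.50 log2 units in HL60 and 0.35 in SUDHL4, against the mean of the other 3 lines. PRKDC, the kinase recruited by Ku, was at 417 in HL60, against 792 in K562, 960.3 in SUDHL4 and 899 in THP1; HL60 lay 1.08 log2 units below the mean of the others, and no interval overlapped another. HL60 was therefore the line with the highest XRCC6 and the lowest PRKDC. LIG4, the ligase that seals the ends, was at 31.8 in SUDHL4, against 15.1 in HL60, 11.2 in K562 and 7.38 in THP1. Its cofactor XRCC4 was instead highest in K562 (28.2) and lowest in HL60 (11.95).

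All 3 mismatch repair members, MSH3, MSH6 and PMS2, had their highest level in SUDHL4. MSH6, which recognises single mismatches, ran from 147 in THP1 to 263 in SUDHL4. MSH3, which recognises larger loops, was at 18.1 in HL60, against 49.2 in K562, 52.6 in SUDHL4 and 29.8 in THP1. PMS2, the nicking subunit, was at 52.8 in SUDHL4, against 15.1 in HL60, 22.3 in K562 and 13.5 in THP1. PMS2 has close copies, so its level is uncertain: the pseudogene PMS2P1 was at 41.4 in SUDHL4, against 22.8 in HL60, 29.4 in K562 and 16.2 in THP1, the same order of lines as PMS2.

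Base excision and single-strand break repair differed by enzyme. PARP1, which senses strand breaks, was at 1092 in SUDHL4, against 426 in HL60, 488 in K562 and 483 in THP1. POLB, the polymerase that fills 1-base gaps, was at 14.3 in HL60 and 18.8 in THP1, against 55.1 in K562 and 55.8 in SUDHL4. HL60 and THP1 were thus both below K562 and SUDHL4. LIG3, a ligase that works with XRCC1, was at 94.0 in HL60, against 57.4 in K562, 30.4 in SUDHL4 and 32.6 in THP1. LIG3 shares 29.1% of its merged exon length with RFFL on the opposite strand. RFFL had the same order of lines, at 13.4 in HL60, 10.5 in K562, 4.69 in THP1 and 2.30 in SUDHL4. XRCC1 itself ran only from 31.2 (K562) to 51.1 (THP1). The glycosylases OGG1, which removes oxidised guanine, and MUTYH, which removes adenine opposite it, differed in SUDHL4, the highest line for OGG1 and the lowest for MUTYH. OGG1 was at 40.5 in SUDHL4, against 33.5 in HL60, 18.1 in K562 and 19.5 in THP1. MUTYH was at 9.57 in SUDHL4, against 17.8 in HL60, 12.8 in K562 and 20.2 in THP1. OGG1 shares 24.96% of its merged exon length with CAMK1 on the opposite strand, and CAMK1 was at 104 in HL60 and 66.9 in THP1 but 2.41 in SUDHL4.

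In nucleotide excision repair, which removes ultraviolet and bulky damage, the helicase ERCC2 was at 33.5 in SUDHL4, against 136 in HL60, 62.8 in K562 and 93.0 in THP1. ERCC1, part of the nuclease that cuts on the 5′ side, followed a similar order at the top, with 120 in HL60 and 102 in THP1 against 54.9 in K562 and 61.7 in SUDHL4. The partner nuclease gene ERCC4 stayed between 12.02 (THP1) and 17.2 (SUDHL4), and the helicase ERCC3 between 25.8 (THP1) and 37.5 (K562). The nuclease gene ERCC5 ran from 10.7 (K562) to 22.9 (HL60); 63.2% of its merged exon length belongs also to a read-through locus with BIVM. Of the damage recognition genes, XPC was at 60.4 in K562, against 43.3 in SUDHL4, 26.5 in HL60 and 22.2 in THP1, and XPA ran from 8.66 (THP1) to 19.3 (SUDHL4). The bypass polymerase POLH was at 15.3 in HL60, against 35.2 in K562, 38.5 in SUDHL4 and 29.3 in THP1.

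Counted by line, on log2(value + 1) against the mean of the other 3 lines, SUDHL4 was at least 2-fold higher for 7 members, or 17.1%, against 15.6% of all genes: MGMT, PMS2, ATR, LIG4, PARP1, ATM and POLB. It was at least 2-fold lower for 1, ERCC2 (2.44%, against 23.5% of all genes). K562 was higher for POLB and XPC (4.88%, against 19.7%) and lower for MGMT (2.44%, against 19.3%). THP1 was higher for 0 members, against 19.3% of all genes, and lower for 3, namely ATR, FANCD2 and LIG4 (7.32%, against 18%). HL60 was higher for 3, MGMT, LIG3 and ERCC2 (7.32%, against 14.3%), and lower for 5, POLB, NBN, MSH3, POLH and PRKDC (12.2%, against 18.8%). MGMT entered the higher lists of HL60 and SUDHL4 through the 0 of K562: with K562 left out of the mean, HL60 was at −0.08 log2 units and SUDHL4 at 0.77.

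The HL60 counts depended on the scaling between libraries. Scaling to 11 housekeeping genes set the HL60 median of all genes at −0.37 log2 units, against 0.08 as deposited, and the other medians at 0.09 in K562 (0.07 as deposited), 0.11 in SUDHL4 (−0.10) and 0.05 in THP1 (−0.16). With it, HL60 was higher for 1 member (against 8.26% of all genes) and lower for 9 (against 26.1% of all genes), and LIG4 in THP1 came to −0.95 and LIG3 and ERCC2 in HL60 to 0.80 and 0.74. The 7 members higher in SUDHL4 remained so under all 3 scalings, and housekeeping scaling brought their number to 10, against 19.3% of all genes under it. SUDHL4 was the highest line for 16 of 41 members as deposited (39%, against 24.3% of all genes), 17 when scaled to column totals (against 25.6% of all genes) and 22 with housekeeping scaling (against 32.1% of all genes). THP1 was the lowest line for 16 (39%, against 29.8%), but for 9 with housekeeping scaling (against 21.1% of all genes). HL60 was the lowest line for 8 members as deposited (against 21% of all genes), 11 with column totals (against 25% of all genes) and 17 with housekeeping scaling (against 35.9% of all genes). Beside these counts, the S phase genes, which move with the share of cells copying DNA, had a median in SUDHL4 of −0.14 log2 units and in HL60 of 0.50 over 19 genes; with housekeeping scaling it was 0.09 in SUDHL4 and 0.02 in HL60. Their part in the repair levels was not tested.

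Of 71 further repair genes with a row, 69 passed the level filter and 9 of these (13%) spanned at least 4-fold, against 42.1% of all genes. Near 0 in a single line were 2 of the 69, FAN1 and RAD52, against 9.36% of all genes. FAN1, a nuclease of cross-link repair on chromosome 15 (30903852 to 30943108), had 0 reads in SUDHL4 (a 3-read limit of 0.129; the exact interval reaches 0.154), against 10.98 in HL60, 21.2 in K562 and 1.48 in THP1. Against the 3-read limit, SUDHL4 was at least 165-fold lower than K562 and at least 85.4-fold lower than HL60. RAD52, a strand-annealing protein, was at 0.963 in THP1 (0.659 to 1.36), against 5.21 in HL60, 3.12 in K562 and 5.49 in SUDHL4. The THP1 interval of RAD52 crosses the limit of 1, so this call is uncertain. Spans of 8-fold or more were seen for FAN1, for the glycosylase NEIL1, at 7.47 in SUDHL4 against 0 reads in HL60, 0.212 in K562 and 0.932 in THP1, and for ALKBH2, which like MGMT reverses alkyl damage directly, at 4.35 in THP1 against 21.3 in HL60, 20.6 in K562 and 42.7 in SUDHL4. At least 2-fold from the mean of the others, 6 were higher and 2 lower in HL60, 8 and 8 in K562, 8 and 5 in SUDHL4, and 3 and 13 in THP1, of 69. As shares these were 8.7% and 2.9% in HL60, 11.6% and 11.6% in K562, 11.6% and 7.25% in SUDHL4, and 4.35% and 18.8% in THP1, against 14.3% and 18.8%, 19.7% and 19.3%, 15.6% and 23.5%, and 19.3% and 18% of all genes. The list's median span was 1.26 log2 units.

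The mixtures were set against a prediction from the pure lines. The RNA share of each line came from a non-negative least-squares fit to signature genes that are not members, and the prediction was the fitted coefficients times the pure levels. By these estimates, K562 gave 22.7% of the RNA of mixture 1, 20.7% of mixture 2, 39.5% of mixture 3, 0.00632% of mixture 4, 53.7% of mixture 5 and 53.1% of mixture 6. HL60 gave 48.4% of mixture 2 and 0.267% of mixture 5, and SUDHL4 58.2% of mixture 4 and 0% of mixture 3. By these fits, mixtures 3, 4 and 5 thus held little or no RNA of 1 line each, although the labels name 4. A share is one of RNA, not of cells.

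MGMT, unread in K562, was read in every mixture. It was highest in mixture 4, at 30.6 against a predicted 28.6, and in mixtures 5 and 6, the richest in K562, it was at 12.5 and 14.8. Its lowest level, 11.1, was in mixture 3, where the estimated SUDHL4 share was 0%. In mixtures 1, 2 and 3 it was at 22.8, 25.4 and 11.1, against predictions of 19.2, 17.9 and 11.4, and in mixtures 5 and 6 the predictions were 10.4 and 10.9. Measured MGMT was above the prediction in 5 of 6 mixtures, at up to 142.3% of it in mixture 2, and below it in mixture 3.

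**Figure D2:**
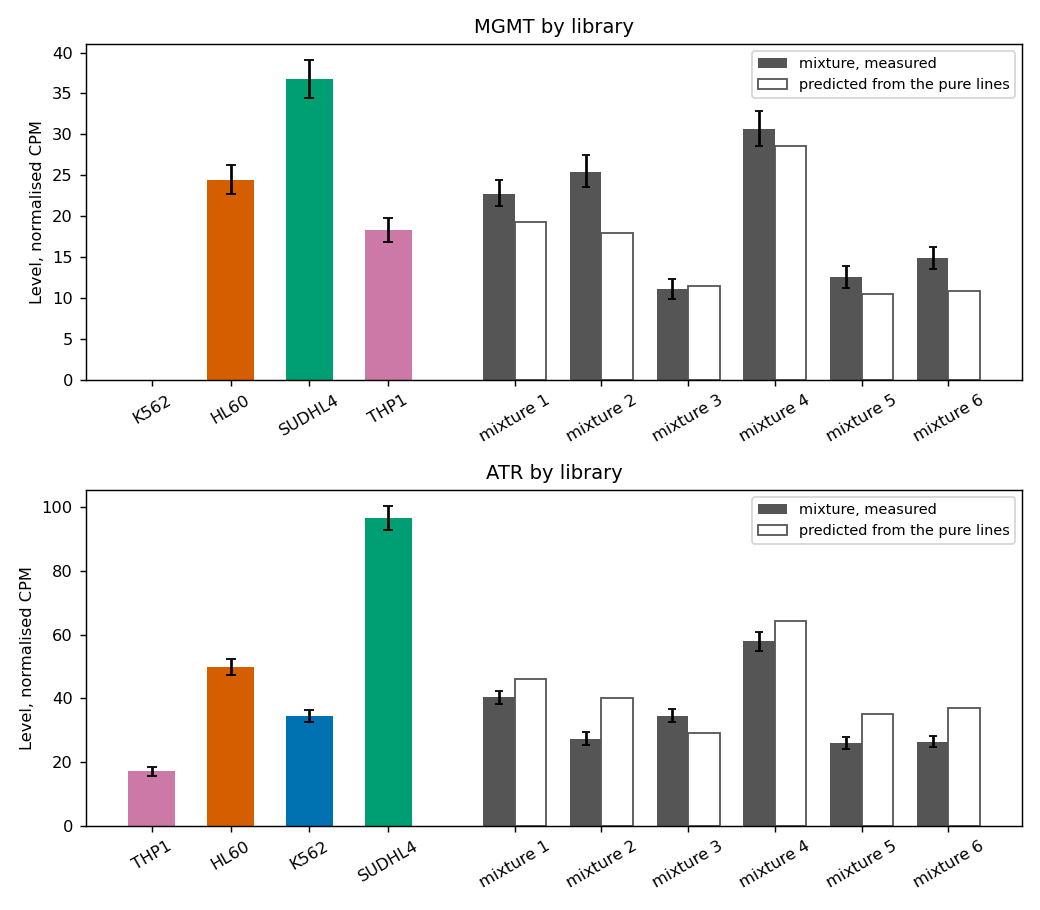
MGMT and ATR in every library, in normalised CPM; coloured bars are pure lines and dark bars mixtures, each with its 95% Poisson interval, and white bars the prediction from the pure lines. MGMT has no bar in K562, and its mixture bars run from 11.1 (mixture 3) to 30.6 (mixture 4); ATR is lowest in THP1 at 17.1.

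Over the 41 members and 6 mixtures, 234 of 246 values, or 95.1%, lay within 1.5-fold of the prediction on log2(value + 1), against 96.1% of the values of all genes. All 12 exceptions were below it, 6 in mixture 2 and 6 in mixture 5. In mixture 2 they were PRKDC at 53.5% of the predicted level, BRCA2 at 52.7%, PMS2 at 56.0%, POLH at 58.5%, BRCA1 at 59.5% and ATM at 60.5%. In mixture 5 they were LIG4 at 58.6%, ERCC4 at 59.0%, POLH at 62.98%, PRKDC at 63.2%, TP53BP1 at 64.0% and BRCA1 at 66.1%. Of all genes, 6.96% were below the window in mixture 2 and 4.16% in mixture 5. PRKDC, POLH and BRCA1 were in both lists. The window held 41, 35, 41, 41, 35 and 41 members in mixtures 1 to 6, against 99.1%, 89.5%, 99.6%, 98.3%, 93.1% and 97.2% of all genes.

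**Figure D3:**
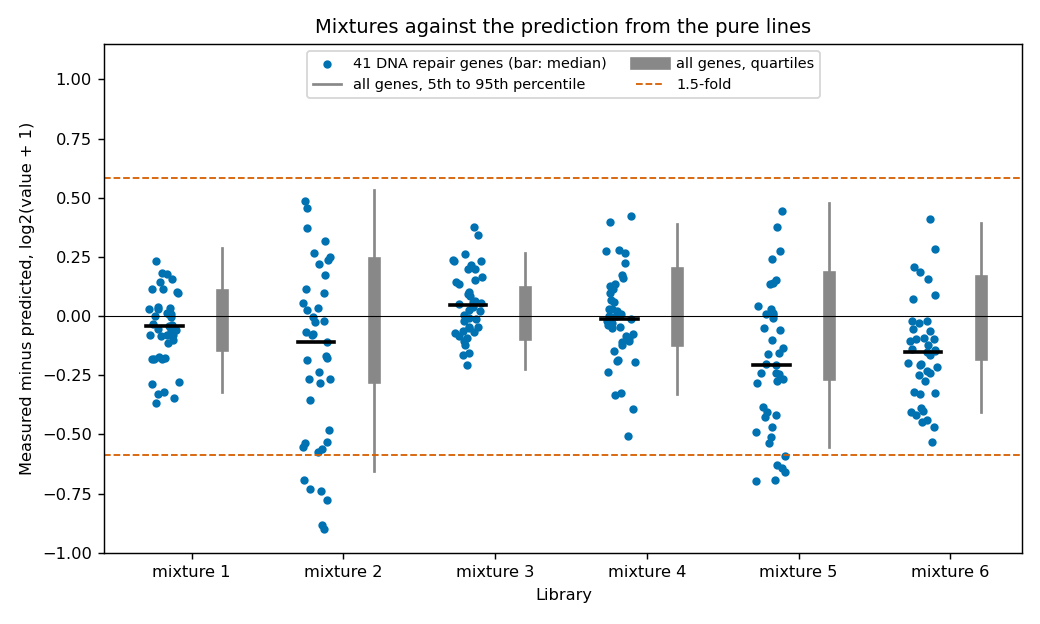
Measured minus predicted level of the 41 DNA repair genes in each mixture, on log2(value + 1), beside the quartiles and the 5th to 95th percentiles of all genes; dashed lines mark 1.5-fold. The members' median lies at −0.11 in mixture 2, −0.21 in mixture 5 and −0.15 in mixture 6, and only mixtures 2 and 5 have members under the lower line.

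A comparison that needs no estimated share asks whether a mixture lies outside the range of all 4 pure lines. It does depend on the scaling between libraries, and the values here are as deposited. Of 246 values, 25 were below every pure line (10.2%, against 3.79% for all genes) and 1 was above (0.407%, against 2.99%), ERCC5 in mixture 2. Members with a narrow span can leave the range by a small change. BRCA1 was below the range in 5 mixtures, at 94.6 in mixture 1, 62.8 in mixture 2, 98.6 in mixture 4, 72.1 in mixture 5 and 79.3 in mixture 6, against 104 to 122 in the pure lines; in mixture 3 it was inside, at 117. PRKDC, at 331 in mixture 2, was below the 417 of HL60, its lowest line. XRCC5 was below the range in 4 mixtures, by less, at 777 in mixtures 2 and 3, 749 in mixture 5 and 691 in mixture 6, against 792 in K562. With housekeeping scaling, HL60 became the lowest pure line for BRCA1 (−0.51 log2 units against the mean of the others) and XRCC5 (−0.50). Not all of the BRCA1 and XRCC5 calls hold under that scaling. In mixture 2 alone, 10 members were below every pure line (24.4%, against 7.24% of all genes), and in mixture 5, 7 were (17.1%, against 5.61%). Mixtures 1, 3, 4 and 6 had 1, 1, 2 and 4 such members, against 1.25%, 2.64%, 2.73% and 3.29% of all genes. Above the range were 0.811%, 6.64%, 0.35%, 3.41%, 4.06% and 2.65% of all genes in mixtures 1 to 6. Inside it were 220 member values (89.4%, against 93.2%). The number of member values inside was 217 when scaled to column totals and 211 with housekeeping scaling. The shares of all genes under these 2 scalings are not given here.

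The departures from the prediction moved with merged exon length. Across the 41 members, Spearman's rho between measured minus predicted and merged exon length was −0.53, −0.47, 0.34, −0.42, −0.40 and −0.38 in mixtures 1 to 6. Across 11565 genes it was −0.29, −0.51, 0.29, −0.26, −0.43 and −0.35, so mixture 3 had the opposite sign in both. With the GC content of the longest transcript, rho over the members was 0.45, 0.42, −0.55, −0.16, 0.46 and 0.26, and over all genes 0.43, 0.36, −0.41, −0.39, 0.44 and 0.29. These are descriptions across genes that share a library and its estimated shares. Per the labels, libraries were made with either of 2 kits, without saying which library had which, and the part of kit, RNA quality or length in the low members was not tested.

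**Figure D4:**
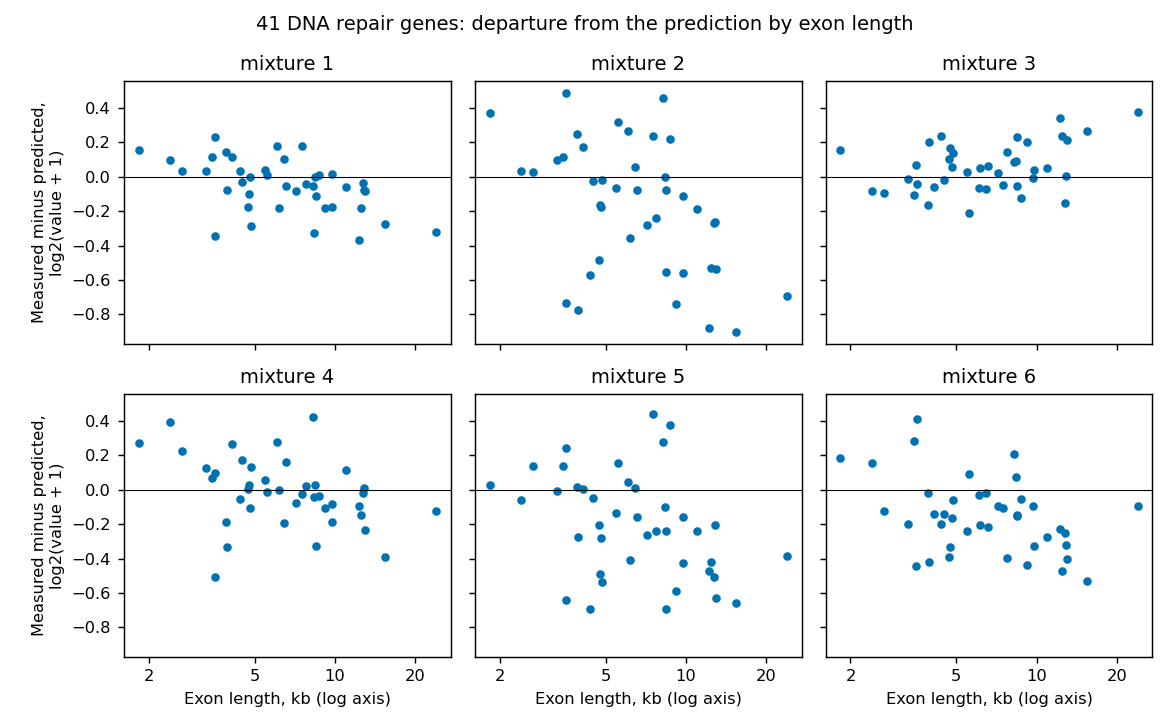
Measured minus predicted level, on log2(value + 1), against merged exon length in kb (log axis) for the 41 DNA repair genes, 1 panel per mixture. Points slope down to the right in 5 mixtures, with PRKDC at 15.4 kb the lowest of mixture 2 at −0.90, and up in mixture 3.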

How the data were processed

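Bulk RNA of 10 libraries was analysed from 1 table of 20591 genes by Ensembl ID. The deposited values are a signal, reads per 1000000 that the authors rescaled by a method no label or header records. The submitters' processing notes name HISAT2, featureCounts and Cell Ranger ARC 2.0.0, and the build hg19. Every value above 0 was a whole number of reads plus 0.5, times a constant step for its column (100% within 0.01), which gave the reads. The design had assumed plain CPM, and its rules of size were kept for the rescaled values. Libraries were assigned from their titles, with 1 per group, so differences were described by size, on log2(value + 1), and no test was made. The members and lists were chosen with earlier results of these data known. All 41 members may be named. Other repair genes are named when near 0 in a single line or spanning 8-fold. MRE11 and NHEJ1 were named outside this rule, after their values were seen.

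Shares were fitted by non-negative least squares (scipy 1.17.1) on 100 signature genes per line, outside all lists, and checked on simulated mixtures. Exon lengths, overlaps and positions came by Ensembl ID from GENCODE release 29 (GRCh38), which is not the authors' build. The promoter came from RefSeq (GRCh38.p14). Alternatives covered scaling, pseudocount, thresholds and signature size.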

Additional observations from a re-analysis of the deposited data

How the results depend on the processing

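Of 57 recomputed counts, 38 stayed within 1.5 times the reported one. Members spanning at least 4-fold numbered 4 with housekeeping scaling and 4 with a pseudocount of 0.5, against 2. With housekeeping scaling, 1 member was 2-fold higher in HL60 (against 8.26% of all genes) and 9 were lower (against 26.1%). In THP1, 1 was higher with housekeeping scaling (against 22.5% of all genes), 1 with column totals (against 19.8%) and 1 with a pseudocount of 0.5. At 4-fold, the counts were 0 higher and 0 lower in HL60, 0 higher in K562, 1 higher and 0 lower in SUDHL4, and 0 lower in THP1. Against the nearest of the other 3 lines, they were 0 and 0 in HL60 and 0 higher in K562. By the same rule, 3 were higher and 0 lower in SUDHL4, and 1 was lower in THP1. This nearest-line rule asks more by construction. For the span, pseudocount, 4-fold and nearest-line counts, the shares of all genes are not given here, so these counts describe the members alone. MGMT was the 1 member near 0 at limits of 0.5, 1 and 2 and under both other scalings. Of 246 mixture values, those within the window ran from 229, with coefficients rescaled to a sum of 1 (chosen after seeing the data), to 246 with a 2-fold window. No paired analysis was possible because each group holds 1 library, and for the same reason no replicate could be left out. Poisson intervals cover counting error only, and differences between cultures were not measured.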

Other observations

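Ratios between partner genes within a library do not depend on the scaling between libraries; they are not corrected for length, so they compare libraries and not genes. ATM stood at 1.69 times the level of ATR in THP1, against 0.509 in HL60, 0.510 in K562 and 0.572 in SUDHL4. The mixtures ran from 0.562 to 0.882. XRCC5 was at 0.728 times XRCC6 in HL60, against 1.06 in K562 and 1.18 in both SUDHL4 and THP1. BRCA1 was at 7.63 times BRCA2 in THP1 and 6.10 times in K562, against 2.65 in HL60 and 2.84 in SUDHL4. ERCC1 was at 8.21 times ERCC4 in HL60 and 8.49 times in THP1, against 3.69 in K562 and 3.58 in SUDHL4. A pool of these lines would lie between them, and the other mixtures did, but mixture 2 was at 13.1 and mixture 5 at 9.60. Such ratios thus vary between libraries by more than the lines pooled. Merged exon length (5.58 kb for ERCC1, 8.46 kb for ERCC4) and GC content (56.1% and 39.9%) differ between the genes, and their part was not tested. FANCD2 was at 0.220 times FANCI in THP1, against 0.387 in HL60, 0.298 in K562 and 0.310 in SUDHL4.

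The end-joining factor NHEJ1 was named after its values were seen: it had 0 reads in HL60, SUDHL4 and THP1 and 3 reads in K562, and its highest mixture level was 0.205 normalised CPM in mixture 1. Exons of 15 members overlap those of another annotated locus by at least 10% of their length, and reads of the 2 loci were not told apart here.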
